A study of Mus musculus with 2 samples.

Results

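The cells described here are retinal progenitors with transcripts of the G2 and M phases of the cell cycle, called G2/M multipotent progenitors after the rule that chose them. They were taken from the GFP- library of dissociated *LHX4::GFP* mouse retina by their raw counts of unique molecular identifiers (UMIs), each of which marks 1 captured transcript. A cell was a member when it held at least 8 UMIs of *Sfrp2* and *Fgf15* together, at least 5 of *Ube2c*, *Cdc20* and *Ccnb1* together, and at most 1 of *Olig2*, *Neurog2* and *Atoh7* together, with a mitochondrial fraction under 0.25. There were 575 members among the 4444 GFP- cells under that limit, which is 12.9% (95% exact Clopper-Pearson interval 12.0 to 14.0%), and 8173 cells were deposited for the series.

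The study sorted E14.5 retinal cells to set early cone photoreceptors, which carry the GFP of the *LHX4::GFP* reporter transgene, against the rest of the retina. Retinas of GFP-positive embryos from 2 litters were pooled and sorted into GFP+ and GFP- cells. Both gates therefore carry the transgene, and the sexes were not separated. Each gate gave 1 droplet library, so there are no replicates.

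In the embryonic retina, multipotent progenitors divide to renew themselves and to give rise to all neuronal types and to Müller glia. Their nuclei move during the cycle, and mitosis takes place at the apical surface. Progenitors that turn on neurogenic transcription factors such as *Olig2*, *Neurog2* and *Atoh7* are close to a division that yields neurons, while *Sfrp2*, a secreted Wnt modulator, and *Fgf15*, a secreted FGF, mark the multipotent state. In G2 and M phase a large set of genes for cyclins, kinases, the spindle and the kinetochore is transcribed, and the transcripts are cleared after division.

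Levels are UMIs summed over the cells of a group per 1000000 UMIs (CPM), with 95% exact Poisson intervals, and ratios of levels carry 95% exact binomial intervals. All of these intervals cover counting error only. Since the rule took the members by their counts in these same cells, the levels below describe them, and no test between groups was made. A gene was called higher or lower when its CPM ratio was at least 2 or at most 0.5, among the 7962 genes with at least 10 CPM over the GFP- library other than the 8 genes of the rule.

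Members were compared with other cells of the same library. The first were 779 progenitors without mitotic UMIs, which met the same rule except that *Ube2c*, *Cdc20* and *Ccnb1* were at 0. The second were 348 neurogenic G2/M cells, with at least 5 UMIs of the mitotic trio and at least 2 of *Olig2*, *Neurog2* and *Atoh7*, whatever their *Sfrp2* and *Fgf15*. Members made up 28.75% of the 2000 cells that met the progenitor parts of the rule at any mitotic count. They were 61.3% of the 938 cells past the mitotic threshold, of which 15 fell in neither group.

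Members were large libraries by cell. They held a median of 12331 UMIs (from 3027 to 32370) and 3404 genes, against 8958 UMIs and 2817 genes in progenitors without mitotic UMIs and 11127.5 UMIs in neurogenic G2/M cells. The rule uses raw counts, so deeper cells could pass it more easily. With the rule on UMIs scaled per cell there were 513 members, and 493 of them were among the 575 (85.7% of the 575). Beyond that overlap, the part of depth in the choice of members was not tested. The study kept cells under 3500 genes, and 244 of the 575 members (42.4%) lay at or above that limit, against 6.93% of the progenitors without mitotic UMIs. The median mitochondrial share of UMIs in members was 2.22%. Scrublet, a doublet caller, marked 6 members (1.04%) and 17 of the neurogenic G2/M cells (4.89%). *Xist* and Y-linked UMIs occurred together in more cells, 35 members and 28 of the neurogenic G2/M cells. The part of doublets and free RNA in these was not tested. Of 20 barcodes that occurred in both libraries, 4 belonged to members.

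**Figure D1:**
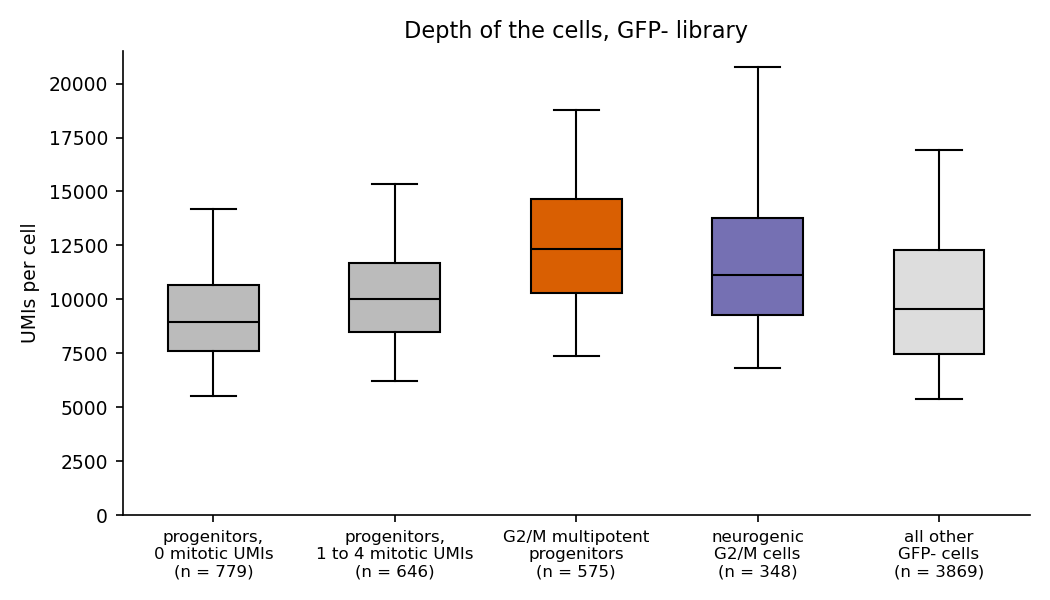
UMIs per cell (vertical axis) in 5 groups of cells of the GFP- library, with the median as a line, the quartiles as a box and the 5th and 95th percentiles as whiskers. The median of G2/M multipotent progenitors, 12331 UMIs, is above that of every other group, the nearest being 11127.5 UMIs in neurogenic G2/M cells.

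The sums that chose the cells spread widely among them. The mitotic sum ran from 5 to 96 UMIs with a median of 17, the sum of *Sfrp2* and *Fgf15* from 8 to 156 with a median of 48, and 449 members had no neurogenic UMI while 126 had 1. At the edge of the mitotic threshold, mitotic genes were alike, while some fate genes differed between the few cells on each side. The 44 members with exactly 5 mitotic UMIs had 41.8 CPM of *Plk1* and 348 CPM of *Top2a*, and the 55 progenitors with 4 had 39.6 and 351 CPM. The same 44 and 55 cells had 306 CPM (260 to 357) and 67.6 CPM (48.5 to 91.7) of *Tubb3*, a neuronal tubulin, 412 and 264 CPM of *Hes5*, a Notch effector, and 754 and 997 CPM of *Dapl1*. The differences in *Tubb3* and *Dapl1* did not hold over wider ranges. Members with 5 to 9 mitotic UMIs had 183 CPM of *Tubb3* and 855 of *Dapl1*, and progenitors with 1 to 4 had 227 and 860. *Hes5* was at 384 and 291 CPM in these cells. At the edge of the progenitor threshold there were 3 members with 8 UMIs and 3 cells with 7, too few to read.

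The name was checked against marker genes that the rule did not use. For the phase, the 185 members with the fewest mitotic UMIs, 5 to 9, went against it in part. They had 48.0 CPM of *Plk1* against 232 in the 101 members with 40 or more. An S phase list was at 2672 against 1408 CPM, and replication-dependent histones were at 7354 against 3862 CPM. The 140 members with 10 to 19 mitotic UMIs had 114 CPM of *Plk1*, 2000 of the S phase list and 7173 of the histones. For both of these sets of members, 5 to 9 and 10 to 19, the name is used as the rule's name only. The fate was read from marker lists. Of 12 multipotent progenitor markers, all of which passed the filter, 7 were called higher and 0 lower in members than in all other GFP- cells, with a median log2 ratio of 1.04 against −0.01 over all 7962 genes, of which 3.38% were called higher and 8.78% lower. Of the 9 neurogenic progenitor markers outside the rule, 8 were lower and 0 higher. *Sox2*, a transcription factor of neural progenitors, stood at 393 CPM (378 to 407) in members and 183 in all other cells. Markers of differentiated retinal neurons were lower in members. The 7 photoreceptor markers summed to 16.7 CPM in members against 133 in all other cells, with *Otx2* the most abundant and *Pdc* at 0. The 8 retinal ganglion cell markers summed to 232 against 3571 CPM, led by *Gap43*, and the 7 amacrine and horizontal cell markers to 16.6 against 299 CPM, led by *Onecut2*. In members the 6 markers of retinal pigment epithelium came to 0.411 CPM (1.90 in all other cells), with *Pmel*, *Tyrp1*, *Mlana*, *Dct* and *Tyr* at 0 and only *Mitf* counted. The 5 ciliary margin markers summed to 10.7 CPM (8.45 to 13.3) against 9.55 in all other cells, led by *Gja1* with *Wls* at 0. The 3 mesenchyme markers summed to 0.822 CPM against 0.760, led by *Col1a1* with *Col3a1* at 0. The 7 blood and vessel markers came to 5.76 CPM against 376, with *Cdh5* and *C1qb* at 0 in members. In the other cells 16304 of 16430 globin UMIs lay in 1 cell. The 2 lens markers came to 0.274 CPM (0.0332 to 0.990) against 0.0507, from 2 UMIs in members, with *Cryaa* at 0.

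Against progenitors without mitotic UMIs, members had higher levels of most mitotic and histone genes and lower levels of many S phase genes. Over all genes, 218 (2.74%) were called higher and 211 (2.65%) lower, and the median log2 ratio was −0.00. With at least 4 or 16 *Sfrp2* and *Fgf15* UMIs in the rule, 347 or 115 genes were lower. As the rule fixes this contrast, the counts of mitotic genes say how its 3 mitotic genes went with the others. Of 92 genes from 8 lists of mitotic genes, 79 were called higher and 1 lower, with a median log2 ratio of 2.60, and their summed level was 21065 CPM (20960 to 21171) in members and 5235 (5183 to 5288) in progenitors without mitotic UMIs.

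All 10 mitotic kinases that passed the filter were higher. The filter covers the whole library, G2/M cells included, and *Plk1*, *Aurka* and *Bub1b* were under 10 CPM in progenitors without mitotic UMIs. Such genes passed it through other cells, so the counts of mitotic genes here and below follow in part from the filter. *Plk1*, the polo-like kinase that drives centrosome maturation and mitotic entry, was counted 1041 times in members and 31 times in progenitors without mitotic UMIs. Its level was 143 CPM (134 to 152) against 4.26, a ratio of 33.5 (23.4 to 49.5). *Aurka*, the kinase of the spindle poles, was at 126 CPM against 3.98, 31.5-fold higher (21.8 to 47.4). *Bub1b*, a kinase-like protein of the spindle checkpoint, was at 55.9 against 3.44 CPM, 16.3-fold higher (10.9 to 25.4). With each cell thinned to 6300 UMIs, 53.2% of members kept a *Plk1* UMI, against 2.70% of progenitors without mitotic UMIs, and before thinning the shares were 67.8% and 3.85%.

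Spindle and kinetochore genes followed the same pattern. All 9 kinesins tested, 14 of 15 genes of spindle assembly and the centrosome, 13 of 17 of the checkpoint and kinetochore, and 11 of 12 of the chromosomal passenger complex and cytokinesis were higher, and none of these was lower. *Kif23*, a kinesin of the midzone needed for cytokinesis, was at 85.1 CPM in members against 3.85, 22.1-fold higher (15.2 to 33.6). *Hmmr*, a spindle-associated protein, was 27.8-fold higher (19.1 to 42.1). *Psrc1*, another spindle protein, was 18.5-fold higher (13.7 to 25.7). *Cenpf*, a kinetochore protein, rested on 3730 UMIs in members, and its level was 511 CPM (495 to 528) against 35.0. *Birc5*, the survivin subunit of the passenger complex, was at 669 CPM against 102. *Tuba1c*, an alpha tubulin isotype outside the lists, had the highest ratio of all genes with at least 50 CPM in either group, at 144 CPM against 4.26, 33.8-fold (23.7 to 49.97). *Sapcd2*, which takes part in spindle orientation, was 28.0-fold higher (18.8 to 43.5), and *Arhgef39*, a guanine nucleotide exchange factor, 21.8-fold (13.4 to 37.8). With the mitotic part of the rule taken from *Cenpf*, *Top2a*, *Plk1*, *Ccnb2* and *Tpx2*, the log2 ratio moved from 4.81 to 7.87 for *Sapcd2*, from 4.80 to 6.09 for *Hmmr*, from 4.47 to 5.76 for *Kif23*, from 4.98 to 5.72 for *Aurka* and from 5.08 to 4.47 for *Tuba1c*. That of *Hmmr* was 5.44 with thinned cells.

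Of 10 genes of the cyclin and CDK1 module, 8 were higher. *Cdc25c*, the phosphatase that activates CDK1, was 16.6-fold higher (11.5 to 24.8; a log2 ratio of 4.05, and of 4.82 with the other mitotic genes in the rule), and *Ccna2* and *Ccnb2* were 8.17-fold and 8.61-fold higher. The 1 that was lower was *Pkmyt1*, the kinase that inhibits CDK1, at 18.0 CPM (15.0 to 21.3) in members and 39.99 in progenitors without mitotic UMIs. Among 8 regulators of the anaphase-promoting complex, the ubiquitin ligase that ends mitosis, 6 were higher and 0 lower, including *Pttg1* (securin) at 413 against 35.6 CPM. Of 12 genes of chromosome condensation, 9 were higher, with *Top2a* at 561 CPM (544 to 578) against 105 and *Hmgb2* at 3208 (3167 to 3250) against 981.

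**Figure D2:**
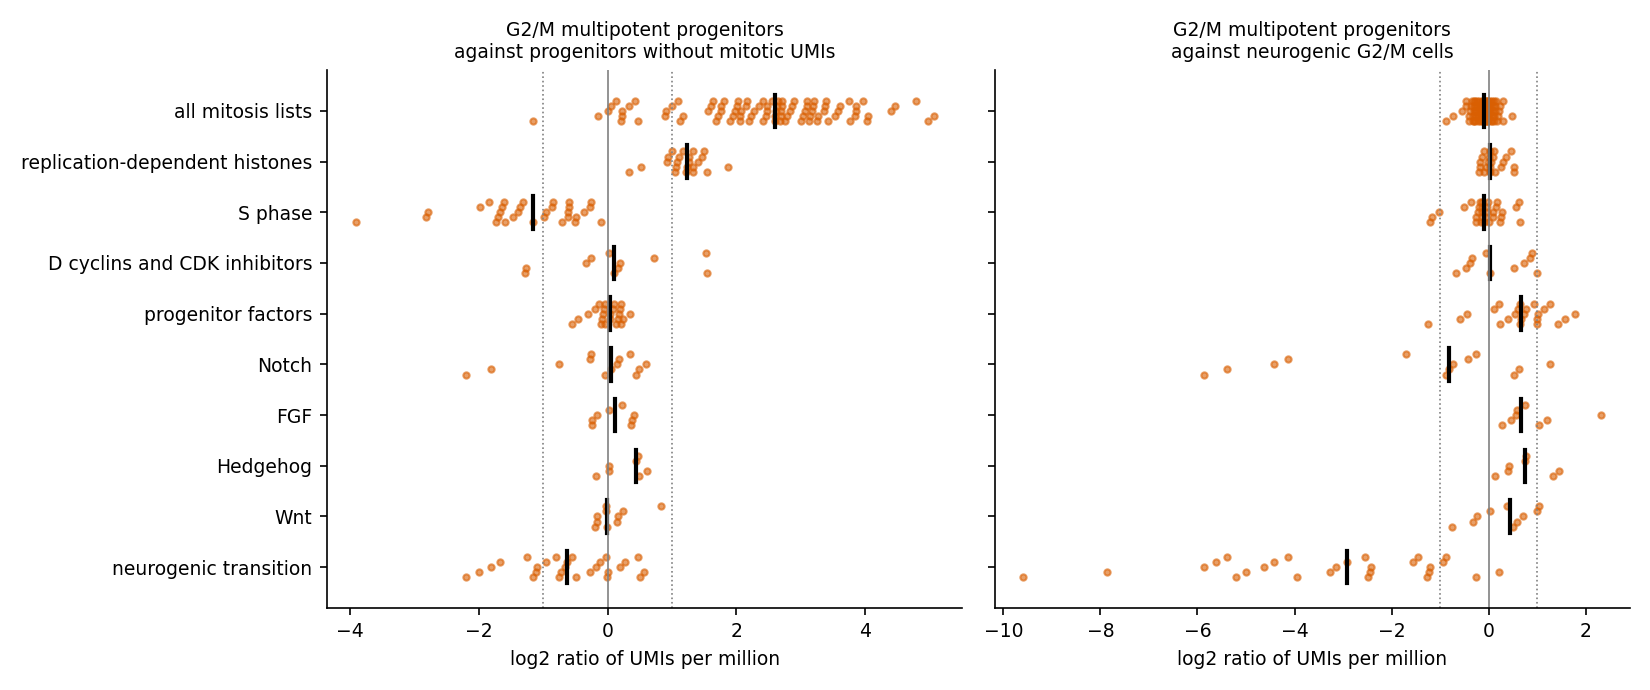
Log2 ratio of CPM (horizontal axis, linear in log2 units) for each gene of the named lists, with G2/M multipotent progenitors against progenitors without mitotic UMIs in one panel and against neurogenic G2/M cells in the other; each point is a gene and each bar the median of its list, with dotted lines at the 2-fold thresholds. Most mitotic genes sit to the right of 0 in the first panel, with a median of 2.60 over all 8 lists and 1 gene called lower. In the second panel they lie around 0, with a median of −0.10. The neurogenic list has medians of −0.63 and −2.92.

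Promoters of the mitotic genes were read for the cell cycle homology region (CHR), a short element of genes transcribed in G2 and M phase. It was searched as TTTGAA or its reverse complement TTCAAA from 250 bases before to 50 after the start of the gene. Of the 99 genes of the mitotic lists with *Ube2c*, *Cdc20* and *Ccnb1*, 83 had a RefSeq promoter (GRCm38.p6), and 50 of those (60.2%) held the letters. They were found in 20.2% of all 27025 genes with a promoter, in 3 of 27 S phase genes (11.1%) and in 2 of 17 progenitor factors (11.8%). At least 2 copies of CCAAT or its reverse complement ATTGG, the letters bound by NF-Y, were in 48.2% of the mitotic promoters, 37.0% of the S phase promoters, 29.4% of those of progenitor factors and 13.3% of all. The CHR letters were not in the windows of *Ccnb1*, *Sapcd2*, *Tuba1c*, *Arhgef39* or *Psrc1*, nor in that of *Ung*. A match describes the letters and is not a tested site. The windows below are shown because they belong to genes of the rule and to the genes with the highest ratios, with the CHR letters in capitals, each read 5′ to 3′ on the strand of its gene.
*Ube2c* (chr2:164769888-164769917, plus strand): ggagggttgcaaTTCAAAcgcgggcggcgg
*Cdc20* (chr4:118437344-118437373, minus strand): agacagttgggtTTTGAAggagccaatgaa
*Plk1* (chr7:122159453-122159482, plus strand): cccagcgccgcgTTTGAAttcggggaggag
*Aurka* (chr2:172370521-172370550, minus strand): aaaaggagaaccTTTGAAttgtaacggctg
*Hmmr* (chr11:40733412-40733441, minus strand): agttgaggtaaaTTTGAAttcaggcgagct
*Kif23* (chr9:61946780-61946809, minus strand): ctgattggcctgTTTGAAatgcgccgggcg

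The match in *Ube2c* begins 29 bases before the first transcribed base and that in *Cdc20* 18 bases before it. In *Kif23*, *Hmmr*, *Plk1* and *Aurka* it begins 2, 8, 30 and 32 bases after the first transcribed base, within the transcript. The *Cdc20* window also holds CCAAT downstream of its match, and the *Kif23* window ATTGG upstream of its match.

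S phase genes were lower in members. Of 31 tested, 16 were lower and 0 higher than in progenitors without mitotic UMIs, where 2.65% of all genes were lower and 2.74% higher. The list had a median log2 ratio of −1.16 and a summed level of 1969 CPM (1937 to 2002) against 4009 (3963 to 4055). *Ung*, the uracil DNA glycosylase that removes uracil from replicated DNA, was counted 82 times in members and 1228 times in the other group. It was at 11.2 CPM (8.94 to 13.9) against 169, 15.0-fold lower (12.0 to 19.02). *Cdt1* and *Cdc6*, which load the replicative helicase at origins, were 3.59-fold (3.04 to 4.24) and 7.08-fold (4.93 to 10.5) lower. *Mcm6*, a subunit of that helicase, was at 61.8 CPM against 202, and *Mcm2*, *Mcm3* and *Mcm4* were 3.05-fold, 3.01-fold and 3.19-fold lower. *Chaf1b*, a histone chaperone subunit, was 3.94-fold lower, *E2f1*, a transcription factor of the G1 to S transition, 3.32-fold, and *Tcf19* 3.22-fold. The S phase list did not move as a block, since *Rrm1* (74.7 against 80.1 CPM), *Tyms* (131 against 159) and *Fen1* (74.96 against 96.9) stayed between the thresholds. With the mitotic part of the rule taken from *Cenpf*, *Top2a*, *Plk1*, *Ccnb2* and *Tpx2* instead, the ratio of the summed S phase level moved from 0.491 to 0.810 and that of *Ung* on the log2 scale from −3.91 to −2.30. Under that choice *Mcm3*, *Mcm4*, *Mcm6*, *Cdt1* and *Chaf1b* were no longer called lower, with log2 ratios of −0.95, −0.95, −0.93, −0.95 and −0.86, and *Tcf19* was at 0.0443.

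Transcripts of replication-dependent histones went the other way from the replication genes. Of 22 tested, 18 were higher and 0 lower, where 2.74% of all genes were higher and 2.65% lower. The histone list had a median log2 ratio of 1.23 and a summed level of 6301 CPM (6244 to 6359) in members against 2448 (2412 to 2484). *Hist1h2ap*, an H2A gene, gave most of that sum, at 4556 CPM against 1640. *Hist1h1b*, a linker histone gene, was at 204 CPM (194 to 215) against 69.7. *Hist1h1a* and *Hist1h3a* were between the thresholds, at 93.0 against 65.1 CPM and 38.4 against 30.5 CPM. Histone genes share near-identical sequence, so the split of reads among them is uncertain. With the other mitotic genes in the rule the ratio of their summed levels was 9.70, against 2.57.

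Progenitors were ordered by their mitotic UMIs to see how these genes ran through the members. The 6 bins were 0 (779 cells), 1 to 4 (646 cells), and, within the members, 5 to 9 (185 cells), 10 to 19 (140 cells), 20 to 39 (149 cells) and 40 or more (101 cells). Median depth rose along them, from 8958 UMIs in the first to 11135 in the lowest and 15288 in the highest bin of members. *Plk1* was at 4.26, 14.6, 48.0, 114, 199 and 232 CPM, in that order. *Tuba1c* kept climbing to the last bin, at 4.26, 9.09, 39.5, 68.8, 178 and 322 CPM, and *Arl6ip1*, an endoplasmic reticulum membrane protein, reached 1286 CPM (1230 to 1343) from 108. *Top2a* levelled off, at 696 CPM (659 to 734) in the bin of 20 to 39 and 668 (628 to 709) in the last. *Ung* was at 169, 107, 23.5, 9.57, 4.68 and 4.43 CPM.

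The bins were not alike in replication genes. Members with 5 to 9 mitotic UMIs still had 2672 CPM (2603 to 2742) of the S phase list, and those with 40 or more had 1408 (1350 to 1468). Histone transcripts peaked inside the members. *Hist1h2ap* was at 1640, 4583, 5839, 5563, 4425 and 1927 CPM along the 6 bins, lowest of the members in those with 40 or more mitotic UMIs. *Hist1h1b* did not follow it, staying between 196 and 214 CPM in all 4 bins of members. *Hes5* was higher in the lower bins of members, at 384 CPM (358 to 411) and 359 (331 to 389), than in the upper ones, at 239 (217 to 262) and 253 (229 to 279). The nuclear RNA *Malat1* was at 13849 CPM in the bin of 5 to 9 and between 17203 and 17453 in the higher ones.

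**Figure D3:**
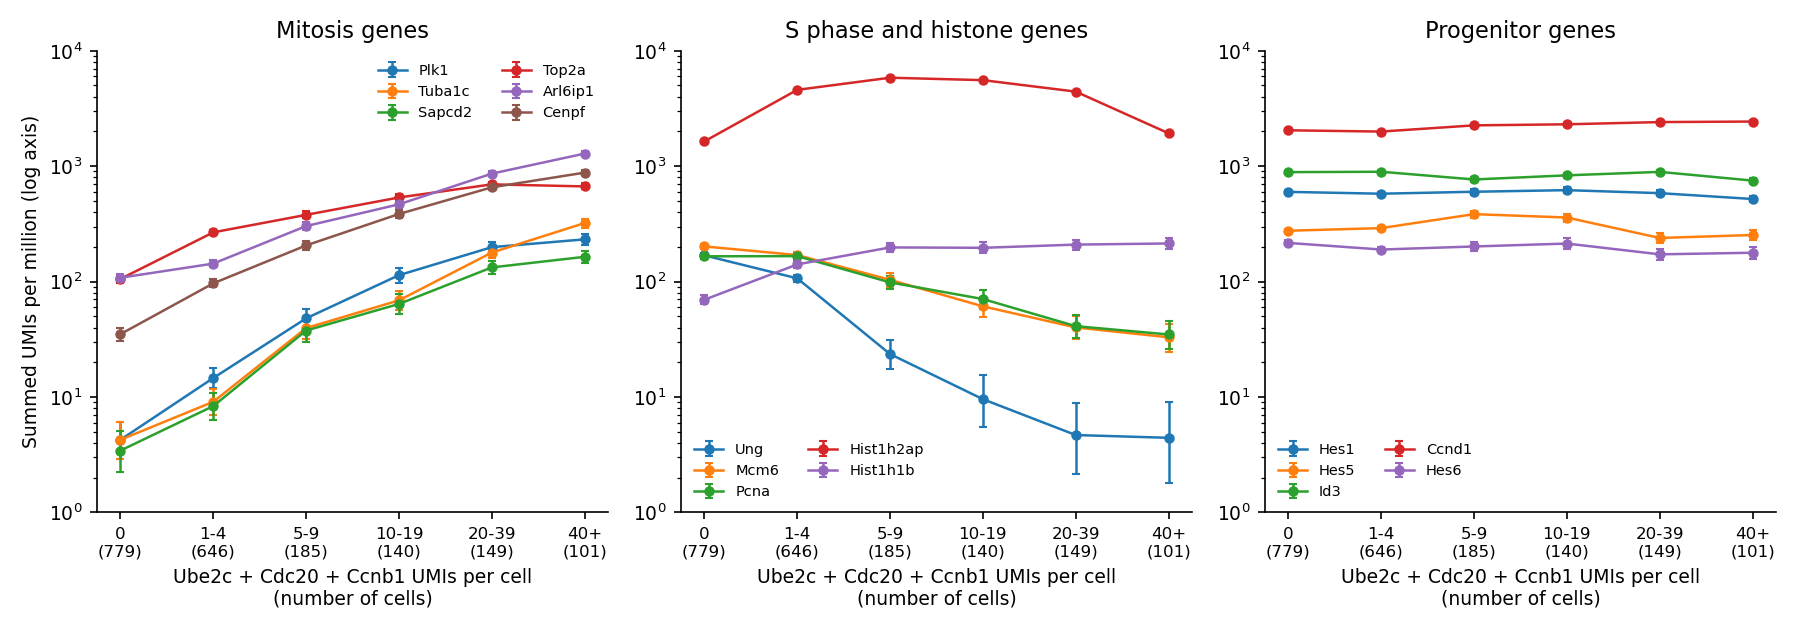
Level (CPM, log axis) of mitotic, S phase, histone and progenitor genes in progenitors binned by their UMIs of *Ube2c*, *Cdc20* and *Ccnb1* (horizontal axis, 0 to 40 or more); bars on the points are 95% exact Poisson intervals and the 4 bins from 5 up are the G2/M members. *Plk1* climbs from 4.26 to 232 CPM and *Ung* drops from 169 to 4.43, *Hist1h2ap* peaks at 5839 CPM in the bin of 5 to 9, and *Hes1* stays between 520 and 620.

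Progenitor factors passed the 2-fold threshold in neither direction. Of 23 progenitor factors tested, 0 were higher and 0 lower in members than in progenitors without mitotic UMIs, with a median log2 ratio of 0.03. Of all genes, 2.74% were higher and 2.65% lower, so these counts are near the shares over all genes. Both groups were chosen by the same threshold on *Sfrp2* and *Fgf15*. Their summed level was 7799 CPM (7735 to 7864) against 7778 (7714 to 7842), and over the 6 bins it stayed between 7592 and 8114 CPM. *Hes1*, a transcriptional repressor of neurogenesis, was at 583 CPM (566 to 601) against 599. *Nr2e1*, the nuclear receptor known as Tlx, was 1.27-fold higher (1.15 to 1.40), while *Hmga1*, a chromatin protein, was at 212 against 290 CPM. *Fabp5*, a fatty acid binding protein, was lower along the bins, at 666, 612, 538, 427, 415 and 427 CPM.

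Among the D cyclins and CDK inhibitors, 2 of 11 were higher and 2 lower, where 2.74% of all genes were higher and 2.65% lower. *Ccnd1*, the main D cyclin of retinal progenitors, was at 2347 CPM (2312 to 2382) in members and 2045 in progenitors without mitotic UMIs, 1.15-fold higher (1.12 to 1.17). *Ccnd2* was 2.44-fold lower (2.01 to 2.97), at 20.6 against 50.2 CPM. The inhibitors split, with *Cdkn2c* (p18) 2.88-fold higher (2.23 to 3.75), *Cdkn2d* (p19) 2.92-fold higher (2.50 to 3.42) and *Cdkn1c* (p57) 2.41-fold lower (2.18 to 2.67).

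Of 8 FGF, 10 Wnt and 7 Hedgehog genes tested against progenitors without mitotic UMIs, 0 were called in either direction, where 2.74% of all genes were higher and 2.65% lower, with medians of 0.12, −0.01 and 0.44. In the Hedgehog list the target *Gli1* was at 47.0 CPM (42.2 to 52.2) against 30.6, the receptor *Ptch1* at 28.1 (24.4 to 32.2) against 20.2, and the antagonist *Hhip* at 21.2 (18.0 to 24.9) against 13.6. Of 13 Notch genes, 2 were lower and 0 higher, with a median of 0.06. These were *Mfng*, a glycosyltransferase that modifies Notch, at 6.58 against 23.1 CPM, and the ligand *Dll3*, at 2.06 against 9.48. Of 11 immediate early genes 0 were called, and of 7 nuclear long non-coding RNAs 1 was lower and 0 higher.

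Some neuronal transcripts were lower in members than in other multipotent progenitors. The part of free RNA in the counts of these transcripts was not tested. Of 27 genes of the neurogenic transition tested, 8 were lower and 0 higher, where 2.65% of all genes were lower and 2.74% higher. Their median log2 ratio was −0.63, and *Neurog1* was at 0 in members. *Tubb3* was at 142 CPM (134 to 151) against 304, 2.14-fold lower (1.98 to 2.30), and *Isl1*, a ganglion cell factor, at 9.18 (7.12 to 11.7) against 24.6. Of the 8 ganglion cell markers, 5 were lower, and the list summed to 232 CPM (221 to 244) against 449 (434 to 464).

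The comparison with neurogenic G2/M cells set members beside cells past the same mitotic threshold. Over all genes, 190 (2.39%) were called higher and 279 (3.50%) lower in members, and the median log2 ratio was 0.01. The balance moved under some alternatives, with 405 higher and 310 lower among cells under 3500 genes, 350 and 321 with the rule on UMIs scaled per cell, and 304 and 330 with cells thinned to equal depth. Of the 92 mitotic genes, 0 were higher and 0 lower, with a median of −0.10 and a summed level of 21065 CPM against 23921. *Plk1* was at 143 CPM in members and 134 in neurogenic G2/M cells, and *Cenpf* at 511 and 521. The exceptions in size were modest. *Ube2s*, a ubiquitin-conjugating enzyme of the anaphase-promoting complex, was 1.84-fold lower (1.78 to 1.90), and *Pbk*, a mitotic kinase, 1.66-fold lower (1.52 to 1.80). Of 31 S phase genes, 3 were lower and 0 higher, namely *Rrm2* at 90.0 against 204 CPM, *E2f1* at 38.0 against 88.1 and *Ccne2* at 5.62 against 11.4. Of 22 histone genes, 0 were called.

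Some progenitor factors were higher in members than in these cells, and most lay between the thresholds. The rule separates the groups by *Sfrp2* and *Fgf15* on one side and *Olig2*, *Neurog2* and *Atoh7* on the other, so a difference in fate genes follows from the choice in part. Of 23 progenitor factors, 6 were higher and 1 lower, where 2.39% of all genes were higher and 3.50% lower. Their median log2 ratio was 0.67. *Id3*, an inhibitor of proneural factors, was at 811 CPM (791 to 832) against 237, 3.42-fold higher (3.20 to 3.67). *Dapl1* was 2.97-fold higher (2.80 to 3.15), *Nr2e1* 2.69-fold (2.30 to 3.15), *Hes1* 2.41-fold (2.25 to 2.58), *Id2* 2.20-fold (2.02 to 2.41) and *Crabp2*, a retinoic acid binding protein, 2.02-fold (1.87 to 2.17). *Hmga1* was the lower one, at 212 against 503 CPM. *Sox2* and *Lhx2* were 1.52-fold and 1.66-fold higher, under the threshold.

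Several secreted and signalling genes were higher in members as well. Over all genes, 2.39% were higher and 3.50% lower in this comparison. Of 8 FGF genes, 3 were higher, *Fgf3* at 150 CPM (141 to 159) against 30.2, the transcription factor *Etv5* 2.30-fold (1.87 to 2.85) and *Fgf9* 2.05-fold (1.80 to 2.35). Of 7 Hedgehog genes, *Gli1* and *Ptch1* were higher, 2.74-fold (2.12 to 3.59) and 2.51-fold (1.82 to 3.52). *Hhip*, which was under the filter with 8.59 CPM over the library, was at 21.2 against 5.72 CPM. Of 10 Wnt genes, *Sfrp1* and *Tcf7l2* were higher, 2.04-fold (1.72 to 2.43) and 2.00-fold (1.69 to 2.38).

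Among the 10 genes with the highest ratios over neurogenic G2/M cells, *Fgf3* came first, at 4.95-fold (4.12 to 5.999). *Ano1*, a calcium-activated chloride channel, was 4.58-fold higher (3.45 to 6.20), and *Cyp26a1*, the enzyme that degrades retinoic acid, 4.47-fold (3.34 to 6.09). *Slc1a3*, a glial glutamate transporter that progenitors also express, was at 138 CPM against 36.4, and *Col9a1*, a collagen chain, at 170 against 48.1. *Dio3*, the deiodinase that inactivates thyroid hormone, was at 58.8 CPM (53.4 to 64.6) against 16.7, 3.53-fold higher (2.73 to 4.61). These 3 levels were not particular to members. Progenitors without mitotic UMIs had 135 CPM of *Slc1a3*, 194 of *Col9a1* and 61.6 of *Dio3*. *Tagln2*, an actin-binding protein, was 3.12-fold higher, and *Sparc*, a matrix glycoprotein, 2.85-fold. Among cells under 3500 genes the log2 ratios of *Fgf3* and *Ano1* were 3.24 and 3.41, against 2.31 and 2.20, so that their order turned, and with the rule on scaled UMIs they were 2.94 and 2.93. Those of *Id3*, *Col9a1* and *Tagln2* under 3500 genes were 2.42, 2.50 and 2.33, against 1.78, 1.83 and 1.64, and that of *Id3* with the scaled rule was 2.69.

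*Fgf3* and *Ano1* are neighbours of *Fgf15*, a gene of the rule, on chromosome 7 (GRCm38). That neighbourhood was looked at after the ratios were seen. *Ano1* lies at chr7:144588549-144751974, *Fgf3* at chr7:144838083-144844436, *Fgf15* at chr7:144896531-144900953 and *Ccnd1* at chr7:144929931-144939925. Within 500 kb of *Fgf15*, 8 genes, itself included, had at least 10 CPM in the library. Of these, *Fgf3*, *Ano1* and *Ccnd1* were 4.95-fold, 4.58-fold and 1.85-fold higher in members than in neurogenic G2/M cells. *Fgf15* was 3.12-fold higher, which follows in part from the rule, as only members had to pass a threshold on *Sfrp2* and *Fgf15*. The cortactin gene *Cttn* (1.08-fold, 0.938 to 1.25) and *Ppfia1* (0.991-fold, 0.767 to 1.29), beyond *Ano1* from *Fgf15*, were near 1, and so was *LTO1* (0.867-fold, 0.699 to 1.08), which lies beyond *Fgf15* on the other side and overlaps *Ccnd1*. *Gm26793*, which overlaps *Fgf15*, was 1.38-fold higher (1.06 to 1.80). Against progenitors without mitotic UMIs, *Fgf3* was at 150 against 128 CPM and *Ano1* at 58.9 against 50.02.

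Genes of the neurogenic transition were lower in members than in neurogenic G2/M cells, 23 of 27 with 0 higher and a median log2 ratio of −2.92. Over all genes, 3.50% were lower and 2.39% higher. *Sstr2*, a somatostatin receptor, was counted 1 time in 575 members and 442 times in the neurogenic G2/M cells, so its ratio of 0.0013 has an interval from 3.29e-05 to 0.00729. *Penk*, the proenkephalin gene, was at 0.822 CPM (0.302 to 1.79) against 193, *Dlx2*, a homeobox factor, at 1.64 against 141, and *Pkib*, an inhibitor of protein kinase A, at 1.37 against 93.4. The Notch ligand *Dll4* was 58.0-fold lower (31.2 to 122), and *Dll1* and *Dll3* 17.6-fold (12.0 to 26.7) and 42.2-fold (25.2 to 76.1). *Onecut1*, a factor of horizontal and ganglion cell development, was 48.9-fold lower (24.4 to 115) and *Otx2*, a photoreceptor factor, 36.8-fold (28.8 to 47.7). *Neurod1*, a proneural factor, was at 6.99 CPM (5.20 to 9.19) against 224. *Gadd45a* was 24.8-fold lower (22.2 to 27.7), *Btg2*, an antiproliferative gene, 15.4-fold (13.2 to 18.0) and *Hes6*, an antagonist of *Hes1*, 9.60-fold (9.07 to 10.2). *Foxn4*, a factor of early progenitors biased to amacrine and horizontal fates, differed far less, at 63.7 CPM against 122. Ratios that rest on few UMIs in members moved with the processing. The log2 ratio of *Penk*, −7.87, was −9.56 with thinned cells and −6.88 with the other mitotic genes in the rule, and that of *Sstr2*, −9.59, was −8.26 with at least 3 mitotic UMIs. That of *Dlx2*, −6.42, reached −7.21 under 3500 genes, that of *Pkib*, −6.09, ran from −6.69 to −5.31, and that of *Onecut1*, −5.61, reached −6.49 with the scaled rule.

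The genes with the lowest ratios in that comparison included the globin genes *Hba-a2*, *Hbb-bt*, *Hba-a1* and *Hbb-bs*. Of the 16319 globin UMIs of the neurogenic G2/M cells, 16304 lay in 1 cell. *Hba-a2* was at 0 in members and at 91.7 CPM in neurogenic G2/M cells, at least 223-fold lower at a floor of 3 counts over the group, and 1 cell sets that value.

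Over all genes, 3.50% were lower and 2.39% higher in members than in neurogenic G2/M cells. Of 13 Notch genes tested, 5 were lower and 1, *Hes1*, was higher. *Rbpj*, the transcription factor of the pathway, was 3.26-fold lower (2.87 to 3.70), *Mfng* 21.4-fold lower (15.9 to 29.3), and the ligands *Dll1*, *Dll3* and *Dll4* made up the rest. The receptor *Notch1* was at 62.5 CPM against 114 and the effector *Hes5* at 312 against 553, both lower but within the thresholds, while *Nrarp*, a target and inhibitor of the pathway, was at 121 against 78.8.

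The members themselves differed by their few neurogenic UMIs. Mitotic cells that held at least 8 UMIs of *Sfrp2* and *Fgf15* were ordered by their UMIs of *Olig2*, *Neurog2* and *Atoh7*, from members with 0 (449 cells) and 1 (126 cells) to 102 cells with 2 to 9 and 23 cells with 10 or more. That every group should meet the progenitor threshold was set after seeing the data, and it left out 61 cells with 2 to 9 and 162 with 10 or more. *Hes6* was at 169 CPM (159 to 180), 272 (247 to 299), 708 (666 to 752) and 2011 (1856 to 2174) along these groups. *Btg2* was at 21.0 (17.4 to 25.1), 41.2 (31.8 to 52.5), 103 and 371 CPM, and *Dll1* at 2.80 (1.60 to 4.54), 8.24 (4.39 to 14.1), 21.8 and 67.2 CPM. Members with 1 neurogenic UMI had higher levels of *Hes6* and *Btg2* than members with none, while for *Dll1* the 2 intervals overlap.

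Progenitor genes were lower toward the other end of that order. *Id3* was at 824 CPM (801 to 848), 766 (723 to 810), 520 (484 to 557) and 208 (161 to 265), and *Hes1* at 589, 560, 452 and 362 CPM. *Ccnd1* was at 2370, 2263, 2277 and 2084 CPM (1927 to 2251). The rule's own *Sfrp2* was at 1269 CPM in the third group and 698 in the last, above the same threshold. *Gadd45a* was at 43.7 (38.5 to 49.5) and 58.3 CPM (47.0 to 71.5) in the members, against 308 and 935 in the other groups. Mitotic genes did not run together along these groups. *Top2a* was at 566, 540, 600 and 650 CPM, *Cenpf* at 518 (499 to 537), 488, 407 and 375 (310 to 449), and *Plk1* at 142, 146, 92.3 and 106 CPM. Without the progenitor threshold, all 185 cells with 10 or more neurogenic UMIs had 65.9 CPM of *Id3* and 771 of *Ccnd1*, with 144 CPM of *Sfrp2*.

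**Figure D4:**
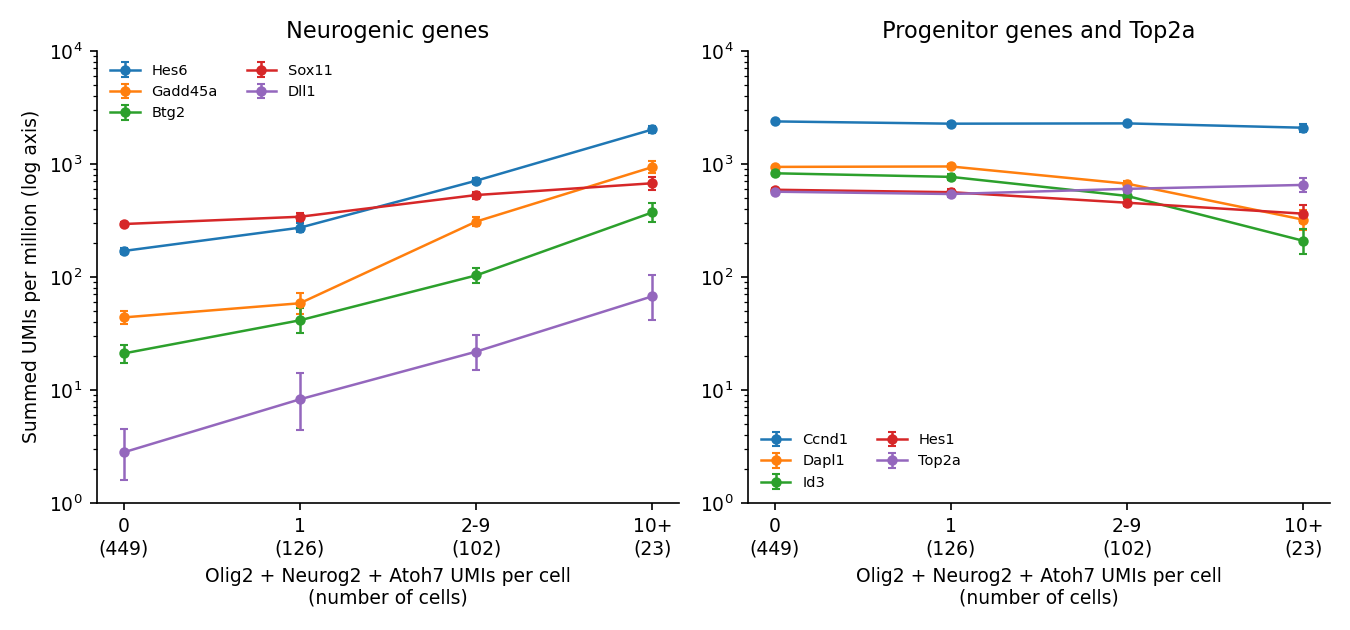
Level (CPM, log axis) of 10 genes in G2/M cells with at least 8 UMIs of *Sfrp2* and *Fgf15*, grouped by their UMIs of *Olig2*, *Neurog2* and *Atoh7* (horizontal axis), with 95% exact Poisson intervals; the groups with 0 and 1 are the members. *Hes6* climbs from 169 to 2011 CPM, *Id3* is lower along the groups, from 824 to 208, and *Top2a* lies between 540 and 650.

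Members included cells with dorsal and cells with ventral markers. *Tbx5*, a T-box factor of the dorsal retina, and *Vax2*, a homeobox factor of the ventral retina, have opposite domains. Among members, 28 held a *Tbx5* UMI and no *Vax2* UMI, 259 a *Vax2* UMI and no *Tbx5* UMI, 2 held both and 286 neither. As *Tbx5* was counted 33 times in all members and *Vax2* 714 times, these numbers do not give the shares of dorsal and ventral cells.

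Other genes of position followed that split. *Aldh1a1*, a dorsal enzyme of retinoic acid synthesis, was at 363 CPM (305 to 429) in members with *Tbx5* and 8.06 (5.35 to 11.6) in members with *Vax2*. *Aldh1a3*, the ventral enzyme, was at 10.7 (2.91 to 27.3) and 165 CPM (152 to 179). Dorsal *Efnb2*, an ephrin, was at 109 (78.5 to 148) against 17.0, *Nr2f2* at 104 (74.0 to 142) against 10.9, *Tbx2* at 82.7 against 23.6 and *Tbx3* at 50.7 against 15.3. *Ephb2*, listed as ventral, was not separated, at 80.1 CPM (54.0 to 114) and 92.4 (82.5 to 103).

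Some genes that set members apart from neurogenic G2/M cells varied along the same axis. *Cyp26a1* was at 96.1 CPM (67.3 to 133) in members with *Tbx5*, 13.8 (10.2 to 18.3) in those with *Vax2* and 93.9 (83.9 to 105) in those with neither. *Col9a1* was at 61.4 (38.9 to 92.1), 233 (217 to 249) and 120 CPM (109 to 132). *Fgf3* was not split, at 160 (122 to 206), 152 (139 to 165) and 148 CPM (135 to 161). Against progenitors without mitotic UMIs, the dorsal and ventral lists both had a median log2 ratio of 0.24, with 0 of 6 and 0 of 5 higher where 2.74% of all genes were. In these lists *Smoc1*, a matrix protein, was the 1 gene called lower, at 6.99 against 19.4 CPM. *Aldh1a1* varied along the bins of mitotic UMIs with no single direction, at 82.7, 83.3, 63.1, 21.5, 71.8 and 39.9 CPM.

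**Figure D5:**
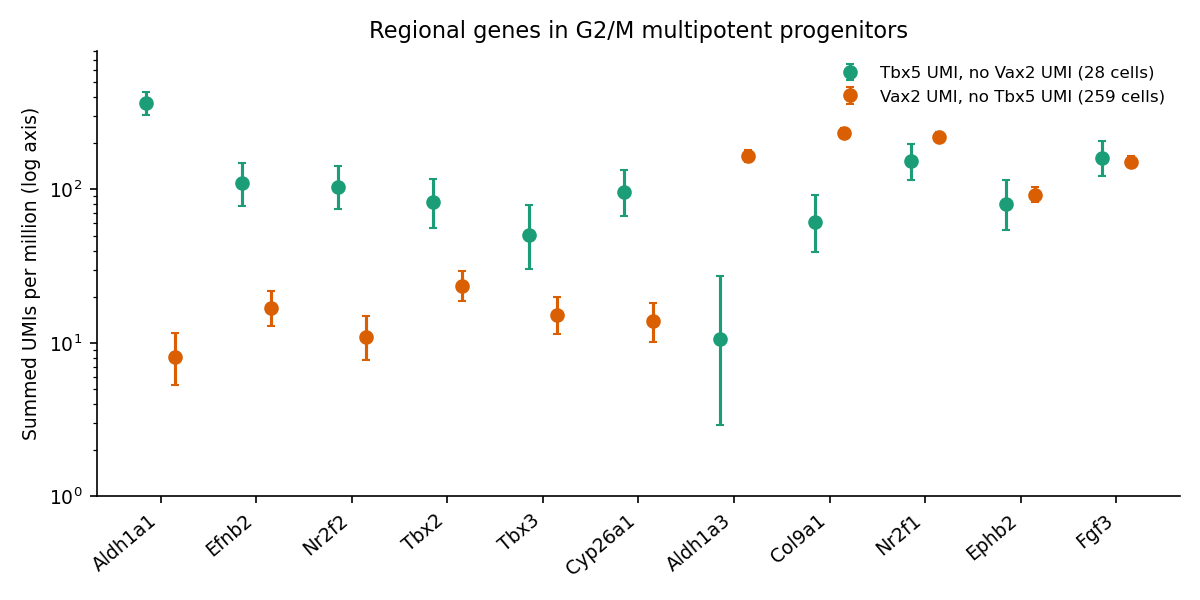
Level (CPM, log axis) of genes of position and of comparison genes in members that held UMIs of *Tbx5* only (28 cells) or *Vax2* only (259 cells), with 95% exact Poisson intervals. *Aldh1a1* (363 against 8.06) and *Aldh1a3* (10.7 against 165) lie far apart in opposite directions, and *Fgf3* (160 against 152) overlaps.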

How the data were processed

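The authors aligned the droplet reads to mm10 (GRCm38) with Cell Ranger 2.1.1 and deposited, for each sort gate, UMI counts per gene and cell for barcodes called as cells, as whole numbers that were not normalized. The GFP- library held 46778924 UMIs in 4445 cells and the GFP+ library 16010591 UMIs in 3728 cells, over 28692 genes. With 1 library per gate there were no replicates, and no p-value was computed.

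The members and gene lists were chosen with earlier results of these data known. UMIs were summed per group and scaled to 1000000. Genes named are those of the rule, those of the lists, and the 10 highest and 10 lowest ratios in the comparisons with progenitors without mitotic UMIs and with neurogenic G2/M cells, among genes with at least 50 CPM in either group. The groups by neurogenic UMIs and by *Tbx5* and *Vax2* UMIs, and the *Fgf15* neighbourhood, are outside that rule. *Haspin* was matched by its older symbol, and *Ventx* was not matched. A few genes that this rule names are not reported here. Doublets were called with Scrublet (scanpy 1.11.5, expected rate 0.03) and left in. Promoters were from RefSeq (GRCm38.p6). Gene positions were from the GRCm38 annotation. For equal depth, cells were thinned to 6300 UMIs, and 4 members, 75 progenitors without mitotic UMIs and 10 neurogenic G2/M cells under that depth were left out. Alternatives changed the cell filters, each threshold of the rule, its mitotic genes, the scaling (TMM in edgeR 4.0.16, R 4.3.3), the low-value filter and the fold. Leaving out the globin cell, the shared barcodes, or cells with both *Xist* and Y-linked UMIs was added after seeing the data. Intervals were tested on simulated data with independent Poisson counts. Spread between cells was left out of that simulation, so it cannot show how the intervals cover such spread. Python 3.11.15, numpy 2.4.6, scipy 1.17.1, pandas 2.3.3 and matplotlib 3.10.9 were used.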

Additional observations from a re-analysis of the deposited data

Results flagged for a closer look

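The GFP+ library, which the comparisons above did not use, held 9 cells that met the rule for G2/M multipotent progenitors, 0.241% of 3728 cells (95% exact Clopper-Pearson interval 0.110 to 0.458%), and they are given here because that library was sorted for cones. They held 103626 UMIs in all. Among these 9 cells *Otx2* was counted 15 times in 5 cells, the cone and rod factor *Crx* 8 times in 4 cells, the phototransduction genes *Gngt2* and *Gnb3* 18 times in 3 cells and 7 times in 4 cells, and *Lhx4* 1 time. *Cenpf* was at 367 CPM (260 to 503). The part of free RNA, doublets and sorting in these counts was not tested.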

How the results depend on the processing

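No paired analysis was possible because each gate had 1 library, and for the same reason no replicate could be left out. The part of depth in the choice of members was looked at only with the rule on UMIs scaled per cell. That rule kept 493 of the members (85.7%). Of the main results under each alternative, 117 stayed close to the value reported and 37 moved. Members were 331 cells (9.77% of cells) under 3500 genes, 10.1% with neurogenic UMIs at 0, 16.2% and 8.78% with at least 3 and 10 mitotic UMIs, 11.5% with UMIs scaled per cell, and 967 cells (21.8%) with the mitotic part taken from *Cenpf*, *Top2a*, *Plk1*, *Ccnb2* and *Tpx2*. Those 967 cells shared 559 with the members (97.2% of the members and 57.8% of the 967). Genes higher than in neurogenic G2/M cells numbered 405 under 3500 genes, 350 with the scaled rule and 304 after thinning, against 190. Genes lower than in progenitors without mitotic UMIs numbered 347 and 115 with at least 4 and 16 *Sfrp2* and *Fgf15* UMIs, against 211. Higher and lower calls, in the order all other cells, progenitors without mitotic UMIs, neurogenic G2/M cells, were 1350 and 5529, 1382 and 2856, 2566 and 1803 with no filter on low values; 71 and 214, 66 and 50, 35 and 85 at 50 CPM; 658 and 1265, 424 and 628, 657 and 636 at 1.5-fold; and 108 and 428, 123 and 54, 28 and 139 at 3-fold. For single genes, 6 values turned their direction. With the scaled rule the log2 ratios of *Hbb-bt*, *Hba-a1* and *Hbb-bs* over neurogenic G2/M cells were 9.22, 10.14 and 9.44, as the cell with the globin UMIs then met the rule, and without the cell that held the globin UMIs those of *Hba-a1* and *Hbb-bs* were 0.0651 and 0.383. With the other mitotic genes *Tcf19* was at 0.0443. For the last the cause was not tested. TMM factors shifted ratios by −0.01 to 0.05 on the log2 scale.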

Other observations

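The pooled embryos were of both sexes, and members held RNA of both. Of the 575 members, 171 had *Xist* UMIs and none of the Y-linked genes, 254 had Y-linked UMIs and no *Xist*, 35 had both and 115 neither. Among the 348 neurogenic G2/M cells these numbers were 121, 134, 28 and 65.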
